A study of Danio rerio with 4 samples.

Results

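Interferon response and antigen presentation genes were followed in endothelial cells of the coronary vessels, which supply the heart muscle, sorted from injured zebrafish ventricles. The members are all rows of the deposited table whose gene symbol begins with one of a fixed set of names (among them isg, mxa to mxc, rsad2, stat2, irf, ifit, ifi, ifih1, cmpk2, dhx58, ddx58, tap1, tap2, tapbp, b2m, mhc1, mhc2, cd74, ciita and nlrc5). This gave 71 of 20306 genes, and 65 of the 71 reached a value of 10 in 2 or more libraries and were tested. No row carried the symbol ddx58. The pattern also took in genes that share a prefix only, namely isg20l2, an exonuclease of ribosome production in mammals, ifitm5, a bone gene in mammals, and 4 genes for IRF2-binding proteins.

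All 4 libraries came from wild-type fish whose ventricles were cryoinjured, that is, injured by freezing, and collected 7 days later. The sorted cells carried the red reporter -0.8flt1:RFP and were split by a yellow reporter, cxcr4a:YFP, into a positive gate and a negative gate, with 2 libraries each. The table heads its columns Regenerating and Non-Regenerating. Knowledge of the reporter lines was used to take Regenerating as the cxcr4a:YFP-positive gate, since the labels do not join the headings to the gates. The gene cxcr4a itself read 2285 and 2242 in Regenerating, against 585 and 590 in Non-Regenerating. The labels do not give the age of the fish or whether each replicate had its own animals, so a p-value here stands for the spread among 4 libraries, possibly a technical one. Each gate is a population set by reporter fluorescence and not a single cell type.

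Interferons are secreted warning proteins. Their receptors act through JAK kinases on STAT and IRF transcription factors, which switch on antiviral effectors and the machinery that displays peptides on the cell surface. Class I molecules, made of an MHC chain and beta-2-microglobulin, are displayed by most cells and load peptides that the TAP transporter brings into the endoplasmic reticulum. Class II molecules, with their invariant chain CD74, are mainly products of macrophages, dendritic cells and B cells, and in some settings of endothelium.

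Library totals lay between 10481747 and 10761712 normalized counts. The spacing of whole numbers put the reads behind them at 11583307 and 10550324 in Regenerating, at 9741978 in Non-Regenerating replicate 2, and was not clear enough for an estimate in Non-Regenerating replicate 1. Pan-endothelial markers were present in all libraries, and the endothelial cadherin gene cdh5 read 11674 and 11643 in Regenerating, against 11920 and 12629 in Non-Regenerating. The 25 markers of this list summed to 108494 and 116122 against 122882 and 129494. Their log2 fold changes, Regenerating minus Non-Regenerating, were below 0 in 20 and above 0 in 5, with a median of -0.08. At an unadjusted p under 0.05 (limma), 3 of the 25 were lower in Regenerating and 0 higher, against 5.19% and 7.62% of all tested genes. These were vwf (4126 and 5988 against 13350 and 9620), flt4 (385 and 103 against 668 and 592) and tek (4685 and 5361 against 6284 and 6416). The smallest adjusted p among the 25 was 0.189 (limma), for vwf, so none passed adjustment. Other cell types were present too. The 8 B cell markers found summed to 3097 and 2425 in Regenerating, against 37 and 26 in Non-Regenerating. Most of that sum was the immunoglobulin gene ighv1-4, at 2559 and 2171 against 5 and 4, the 1 gene of the table with an adjusted p under 0.05 (0.0157, limma). This gene entered the test only through the Regenerating libraries, so its direction was fixed by entry. The macrophage and monocyte markers summed to 10466 and 10755 against 9219 and 5049, and the cardiomyocyte markers to 62116 and 23768 against 9971 and 5208. Of 9 neutrophil markers tested, 6 had log2 fold changes (Regenerating minus Non-Regenerating) above 0 and 3 below. Their median was 0.11, and the neutrophil markers found summed to 8981 and 9703 against 8603 and 8827. The largest log2 fold changes among them were those of cxcr1, at 319 and 600 against 11 and 0, and lect2l, at 471 and 718 against 33 and 3. The low markers mpx (1 and 3 against 9 and 4) and npsn (0 and 3 against 11 and 2) were not tested. The T and NK cell markers found summed to 2353 and 2975 against 2572 and 2816. Most of that sum was 1 gene, gata3, at 1676 and 2294 against 1461 and 2012. Of the 8 T and NK cell markers tested, 4 had log2 fold changes above 0 and 4 below, with a median of -0.11. In such bulk samples, fewer cells of a type and less RNA per cell cannot be told apart.

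Most of the interferon and presentation genes had small estimated differences between the Regenerating and Non-Regenerating libraries. Of the 65 tested members, 51 had an estimated difference of less than 0.5 on the log2 scale, which is 78.5% against 67.9% of all 16928 genes tested. Some of these estimates had wide 95% intervals, such as mxc (0.08, -1.80 to 1.95) and tap2a (0.08, -1.10 to 1.25), so sameness was not shown. The median log2 fold change, Regenerating minus Non-Regenerating, was -0.07 over the members and 0.00 over all genes. The members had a median mean value of 514 normalized counts and all tested genes one of 249, and over all genes small differences were more common at high values. Among genes with a mean from 500 to 2000, 26 of 27 members and 84.1% of all genes lay within 0.5, while at 2000 or more it was 5 of 7 members, or 71.4%, against 89.8% of all genes. No gene exceeded 15485 in any library, and whether high values were held down by the processing was not tested.

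With limma and Benjamini-Hochberg adjustment over all genes, 0 of the 65 members had an adjusted p under 0.05, a threshold that 0.00591% of all genes tested passed, and the smallest adjusted p of a member was 0.164, for rsad2. At an unadjusted p under 0.05, 3 members were higher in Regenerating, mhc2b and mhc1zca among them, which is 4.62% against a background of 7.62%, and 3 were lower (rsad2, irf2bp1 and irf2bp2b), which is 4.62% against 5.19%. The groups did not overlap, with Regenerating higher, in 10 members, or 15.4% against 21.8% of all genes. They did not overlap with Regenerating lower in 14 members, or 21.5% against 21.5%. None of these shares stood above its background. Leaving out Regenerating replicate 1 left 1 higher member, or 1.54% against 3.48% of all genes. Leaving out Regenerating replicate 2 left 1 lower member, or 1.54% against 2.61%. Leaving out Non-Regenerating replicate 2 gave 5 lower members, and this share, 7.69%, was above the 4.92% of all genes, as was the 4.62% lower without Non-Regenerating replicate 1 against 2.43%. The 4 higher members without that library were 6.15% against 5.85%.

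**Figure D1:**
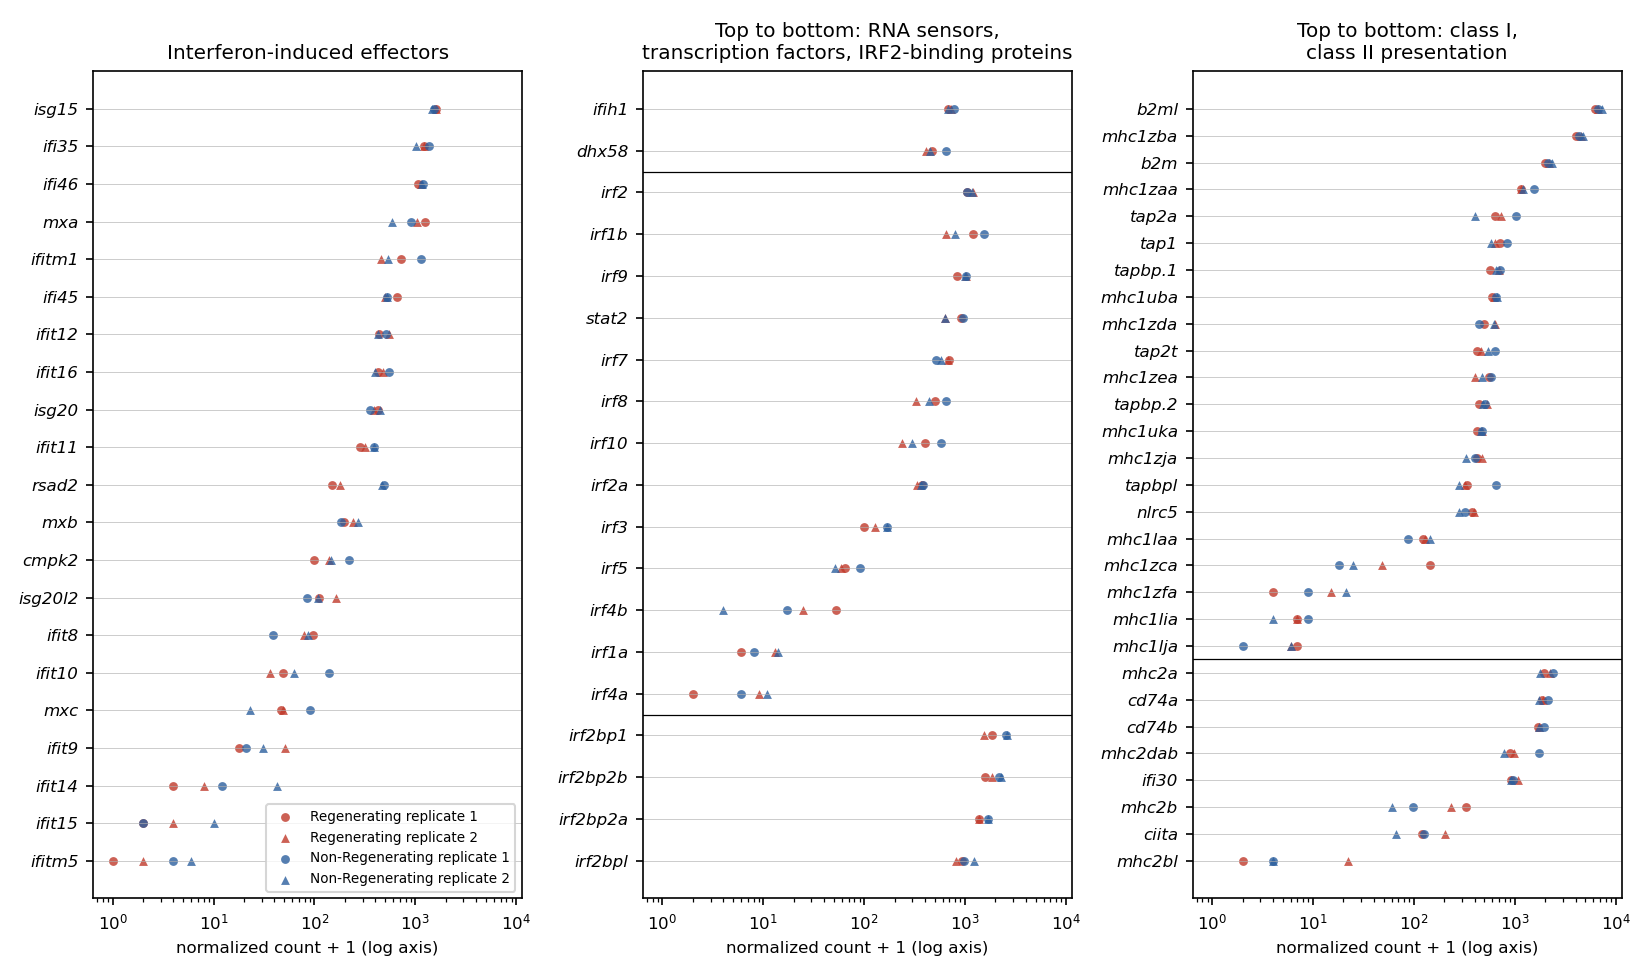
Normalized count plus 1 on a log axis for 69 members, with 1 point per library (red for Regenerating, blue for Non-Regenerating, circles for replicate 1, triangles for replicate 2). Within each role, rows are sorted by mean value. In most rows above 100 the 4 points lie close together, with rsad2, mhc2b and mhc1zca among the rows in which the colours separate.

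**Figure D2:**
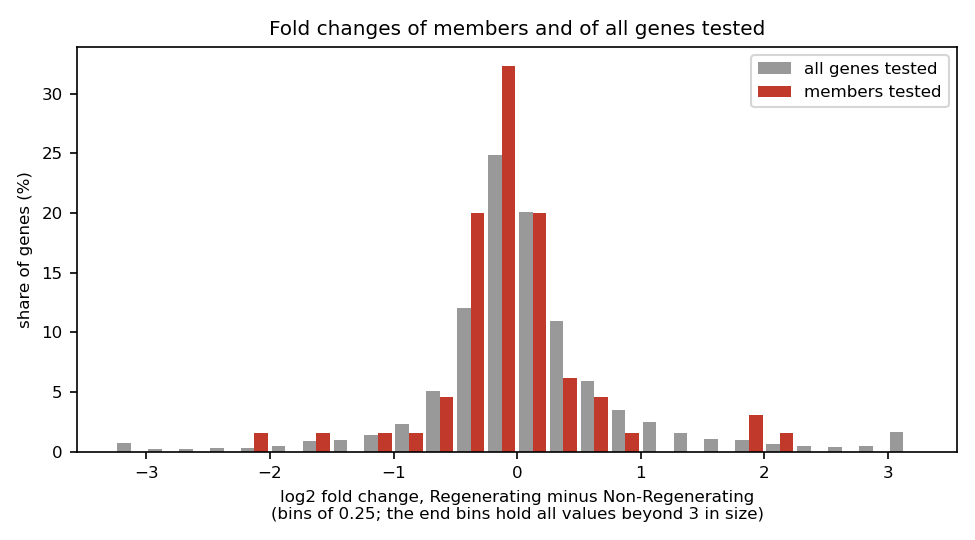
Share of genes in percent (y axis) by log2 fold change (x axis, bins of 0.25) for all 16928 genes tested (grey) and for the 65 tested members (red). The members centre at -0.07 and hold few values beyond 1 in either direction.

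The 3 tested effectors with the highest mean values had log2 fold changes near 0. The gene isg15, which encodes a ubiquitin-like modifier induced by interferon, read 1592 and 1588 in Regenerating, against 1516 and 1468 in Non-Regenerating. Its groups did not overlap, but the log2 fold change was only 0.09 (95% interval -0.23 to 0.42, adjusted p = 0.838, limma). The gene ifi35 read 1209 and 1221 against 1360 and 1018 (log2 fold change 0.05, -0.44 to 0.53), and ifi46 read 1073 and 1145 against 1182 and 1171 (-0.09, -0.44 to 0.27), lower in Regenerating by a small margin without overlap. For these genes the intervals leave room for differences of up to about a log2 of 0.5 in either direction.

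The effector with the smallest p was rsad2, which encodes viperin, an enzyme that makes a chain-terminating nucleotide against viral replication. Its values were 149 and 180 in Regenerating, against 483 and 464 in Non-Regenerating, so that every Regenerating value lay below every Non-Regenerating value. The log2 fold change was -1.53 (SE 0.232, 95% interval -2.12 to -0.93, adjusted p = 0.164, limma), a 2.88-fold difference that did not pass adjustment. Without any 1 library it was between -1.66 and -1.39. The gene lies on chromosome 17 at 35357451 to 35361322 on the minus strand (danRer11 as given with the table). Its neighbour on the plus strand, cmpk2, at 35362851 to 35375448, encodes a mitochondrial nucleotide kinase that in mammals supplies the substrate of viperin. The gene cmpk2 read 98 and 138 against 218 and 145. The groups again did not overlap, with the same direction as rsad2, but the nearest values, 138 and 145, were close (log2 fold change -0.61, 95% interval -1.53 to 0.31, adjusted p = 0.572, limma).

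The Mx genes, which encode dynamin-like antiviral GTPases, differed among themselves. The gene mxa read 1233 and 1042 in Regenerating, against 904 and 586 in Non-Regenerating, with no overlap and Regenerating higher (log2 fold change 0.64, 95% interval -0.02 to 1.29, adjusted p = 0.404, limma). Its neighbour mxb, within the same stretch of chromosome 1 from 7562316 to 7603734, read 195 and 243 against 182 and 269, and the groups overlapped. The gene mxc read 46 and 48 against 89 and 22, so its Non-Regenerating replicates stood on either side of both Regenerating values.

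The ifit genes encode proteins with tetratricopeptide repeats, which in mammals bind foreign RNA. Of 8 such genes, 7 were tested. A cluster of 4 lies on chromosome 12 between 16989120 and 17035339, where ifit10 read 48 and 35 against 139 and 62 and ifit11 read 283 and 316 against 393 and 389, both without overlap and lower in Regenerating. The other members of that cluster, ifit9 and ifit12, overlapped between the groups. On chromosome 17, between 23598205 and 23616626, ifit14 read 3 and 7 against 11 and 42 and entered the test only through the Non-Regenerating libraries, so its direction was fixed by entry. Its neighbour ifit16 read 428 and 482 against 550 and 398, with overlap, and ifit15 read 1 and 3 against 1 and 9 and was not tested. The single gene ifit8 on chromosome 13 read 96 and 77 against 38 and 85. Near-identical copies can share reads. How alike the clustered ifit genes are was not tested, so their separate values are uncertain.

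The remaining effector rows differed little or varied between replicates. The nuclease gene isg20 read 425 and 387 against 351 and 450, and ifi45 read 655 and 497 against 524 and 521. The membrane protein gene ifitm1, which blocks virus entry in mammals, read 726 and 460 against 1136 and 535, a spread between replicates that exceeded the difference between gates. The prefix-only match isg20l2 read 110 and 164 against 84 and 108, where the nearest values differed by little, and ifitm5 read 0 and 1 against 3 and 5 and was not tested. Over the 19 tested effectors the median log2 fold change was 0.03, with 10 above 0 and 9 below.

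Sensors of double-stranded RNA came next. The gene ifih1, which encodes the sensor MDA5, read 674 and 720 in Regenerating, against 781 and 670 in Non-Regenerating (log2 fold change -0.05, 95% interval -0.50 to 0.39, limma). The gene dhx58, which encodes the related regulator LGP2, read 469 and 407 against 643 and 451 (-0.30, -0.94 to 0.33). Both overlapped between the gates.

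The transcription factors of the pathway were present in both gates. The gene stat2, whose product carries the interferon signal to the nucleus, read 914 and 631 in Regenerating, against 958 and 639 in Non-Regenerating, so that the groups overlapped and the replicates of each gate lay further apart than the gates.

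Among the interferon regulatory factors, irf7, the amplifier of type I interferon production in mammals, read 686 and 674 against 516 and 577, without overlap (log2 fold change 0.32, 95% interval -0.13 to 0.76, adjusted p = 0.535, limma). The gene irf3, its partner in the first wave of induction in mammals, read 98 and 127 against 167 and 166, without overlap in the opposite direction (-0.57, -1.34 to 0.19). The gene irf2, known in mammals as a repressor of interferon genes, read 1050 and 1209 against 1048 and 1172 (0.02, -0.39 to 0.43, adjusted p = 0.976, limma), and irf9, a DNA-binding partner of STAT2, read 840 and 1019 against 1026 and 1001. For irf2 and irf9 the groups overlapped, as they did for irf2a (374 and 330 against 382 and 364) and irf5 (64 and 58 against 90 and 50). The low genes irf1a (5 and 12 against 7 and 13) and irf4a (1 and 8 against 5 and 10, not tested) also overlapped.

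The gene irf4b, a paralogue of a factor of B cells and plasma cells in mammals, read 52 and 24 in Regenerating, against 16 and 3 in Non-Regenerating. All Regenerating values were above the Non-Regenerating ones, but the replicates within each gate differed widely (log2 fold change 2.14, 95% interval -0.21 to 4.49, adjusted p = 0.436, limma), and the log2 fold change was 1.1 when Non-Regenerating replicate 2 was left out and 3.19 when the other library of that gate was. The B cell markers stood higher in the same libraries. Of these, cd79b read 50 and 36 against 0 and 0, pax5 read 13 and 17 against 0 and 0, and the light chain gene igl1c3 read 31 and 19 against 0 and 0. With such values these genes could be tested only if Regenerating was higher. The markers cd79a (57 and 43 against 9 and 15) and blnk (68 and 66 against 18 and 4) each reached 10 in a Non-Regenerating library. The part of B cells in the value of irf4b was not tested.

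A set of transcription factors differed between replicates more than between gates. The gene irf1b, which encodes an early interferon-gamma response factor, read 1203 and 645 in Regenerating, against 1539 and 794 in Non-Regenerating. Replicate 1 was thus 1.86-fold above replicate 2 in Regenerating and 1.94-fold in Non-Regenerating. The gene irf10 read 400 and 238 against 576 and 294, irf8, a factor of macrophage fate, read 499 and 326 against 641 and 439, and stat2 had ratios of 1.45 and 1.50. Of the 14 tested factors, 7 were higher in replicate 1 of both gates and 3 were higher in replicate 2 of both, against 33.6% and 31.4% of all genes. The correlation of the replicate log2 ratios between the gates was 0.89 over these 14 genes and 0.34 over all tested genes, where genes are not independent replicates and the same 4 libraries enter every point. Among pathway lists outside the members it ran from -0.30 (sensing adaptors and kinases) to 0.96 (receptors), with 0.90 for feedback inhibitors. Of 19 peptide supply and loading genes outside the members, 12 were higher in replicate 1 of both gates. The pattern was thus not particular to these factors.

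**Figure D3:**
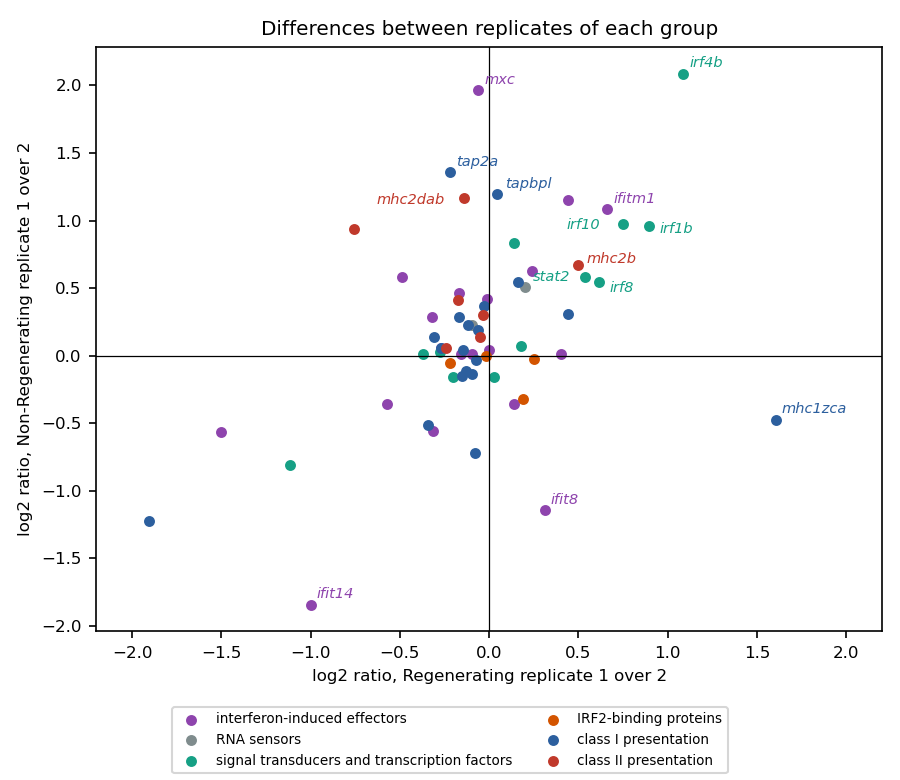
Log2 ratio of replicate 1 to replicate 2 in Regenerating (x axis) and in Non-Regenerating (y axis) for 63 tested members, coloured by role. The transcription factor genes irf1b, irf10, irf8 and stat2 lie in the upper right, whereas tap2a, tapbpl and mhc2dab differ between the Non-Regenerating libraries and hardly between the Regenerating ones.

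All 4 IRF2-binding protein genes, which encode corepressors first found as partners of IRF2, read lower in Regenerating without overlap, which 21.5% of all tested genes did. The gene irf2bp1 read 1837 and 1540 against 2538 and 2581, for a log2 difference of -0.61 (SE 0.140, 95% interval -0.96 to -0.25, adjusted p = 0.206, limma). The gene irf2bp2b read 1591 and 1851 against 2162 and 2245 (-0.36, -0.71 to -0.01, adjusted p = 0.381), and irf2bp2a read 1370 and 1386 against 1703 and 1697 (-0.30, -0.62 to 0.02, adjusted p = 0.421). The fourth, irf2bpl, read 927 and 812 against 980 and 1225 (-0.34, -0.81 to 0.14). The differences were small, and none of the 4 passed adjustment.

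**Figure D4:**
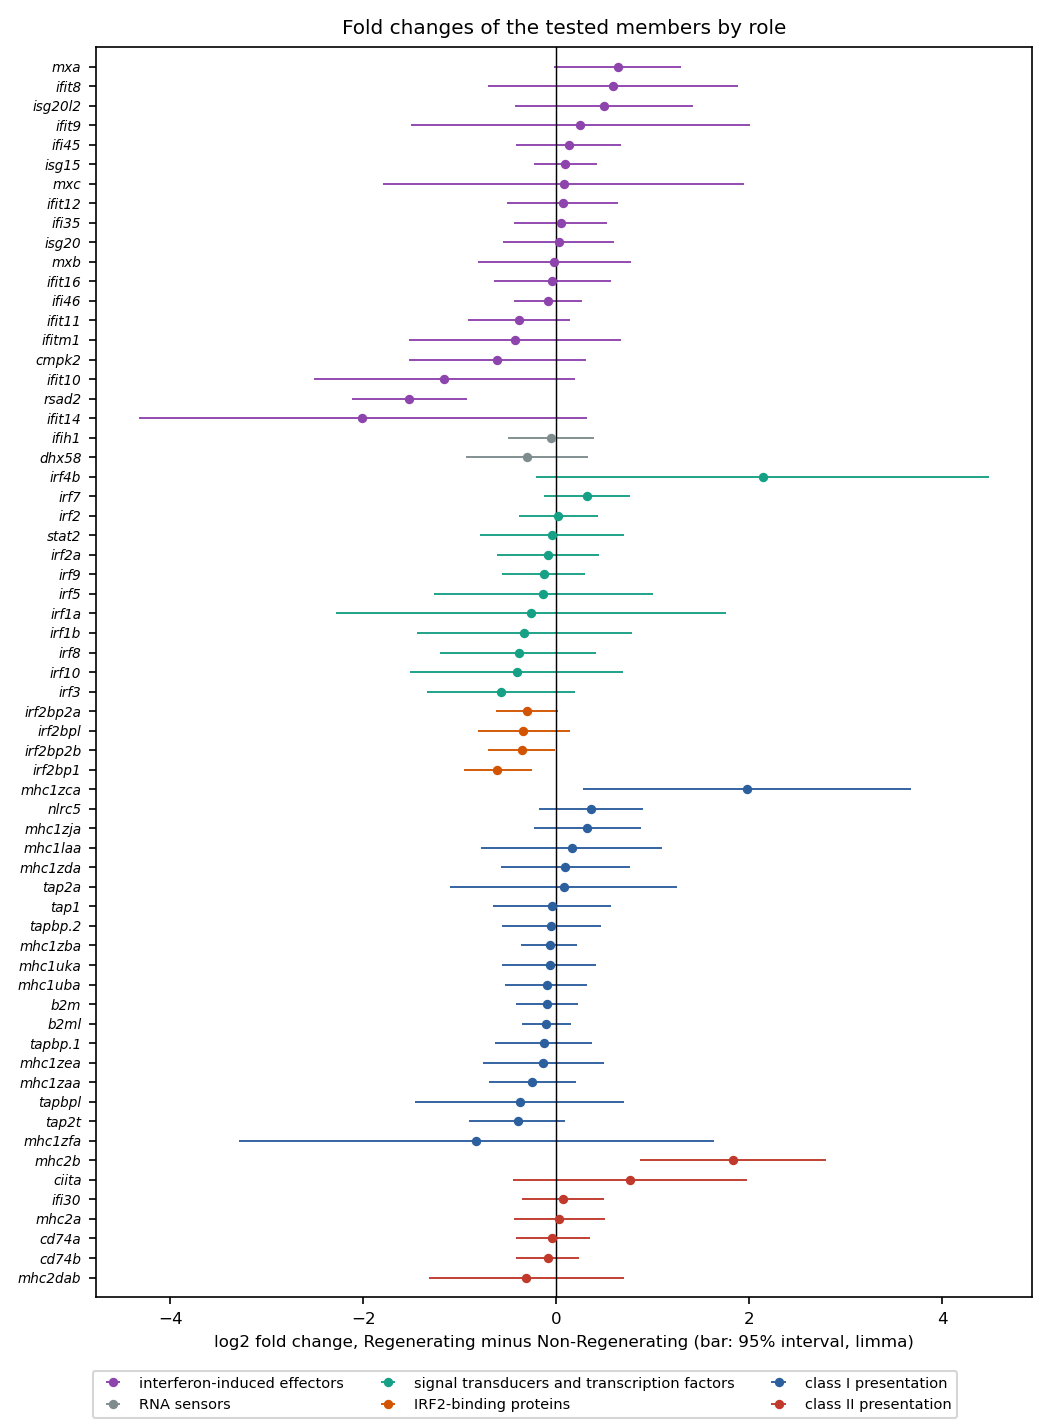
Log2 fold change, Regenerating minus Non-Regenerating (x axis), with its 95% interval from limma, for 63 tested members grouped by role. Intervals that leave out 0 belong to rsad2, irf2bp1 and irf2bp2b on the lower side and to mhc2b and mhc1zca on the higher side.

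Most class I presentation genes had small estimated differences between the gates. The beta-2-microglobulin genes, which encode the light chain shared by class I molecules, read 1989 and 2177 against 2141 and 2313 (b2m) and 6269 and 6710 against 6650 and 7319 (b2ml). The log2 fold changes were -0.10 (95% interval -0.42 to 0.23) for b2m and -0.11 (-0.36 to 0.15) for b2ml. The annotated span of b2m overlaps that of irak3, a gene of the same strand, and the rows may share reads. The spans of tap2t, irf2, irf2a, irf2bpl and ifitm5 also overlap another gene of the table.

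Chains of the classical U lineage lie with loading genes on chromosome 19 between 7038694 and 7132315, the core MHC region of the zebrafish. All 5 members there, tapbp.1, mhc1uka, tapbp.2, mhc1uba and tap2a, had log2 fold changes between -0.13 and 0.08. The chain gene mhc1uba read 596 and 627 against 649 and 664, just below without overlap, and mhc1uka read 421 and 467 against 474 and 460. The tapasin genes, which bridge class I molecules to the transporter, read 563 and 697 against 719 and 654 (tapbp.1) and 437 and 528 against 506 and 488 (tapbp.2). The transporter gene tap2a read 632 and 736 against 1034 and 404, with the Non-Regenerating replicates on either side of the Regenerating ones. Its span overlaps psmb8a and psmb13a on the other strand. Fish of different stocks carry different haplotypes of this region, and whether the reference matched these fish was not tested.

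The Z lineage, another class I family of fishes, was found in clusters on chromosomes 1 and 3. On chromosome 1, between 47116121 and 47161996, mhc1zba read 4082 and 4540 against 4307 and 4771 (log2 fold change -0.07, 95% interval -0.37 to 0.22), mhc1zda read 496 and 630 against 438 and 627, and mhc1zea read 551 and 406 against 580 and 467. These overlapped between the gates. The gene mhc1zca, between them, read 145 and 47 in Regenerating, against 17 and 24 in Non-Regenerating. Its groups did not overlap, with a log2 fold change of 1.98 (SE 0.666, 95% interval 0.28 to 3.68, adjusted p = 0.331, limma) that moved to 1.18 when Regenerating replicate 1 was left out and to 2.78 when the other Regenerating library was. On chromosome 3, between 325757 and 402740, mhc1zaa read 1138 and 1160 against 1552 and 1203 and mhc1zja read 424 and 477 against 398 and 325, without overlap in opposite directions, and mhc1zfa read 3 and 14 against 8 and 20. Whether copies within these clusters are alike enough to share reads was not tested, which leaves the value of each gene uncertain.

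Of the L lineage, mhc1laa read 122 and 129 against 87 and 144, and mhc1lia and mhc1lja stayed at 8 or below in every library and were not tested. The remaining loading genes were tap1 (714 and 637 against 840 and 574), the paralogue tap2t (424 and 460 against 633 and 539, without overlap, log2 fold change -0.40, 95% interval -0.90 to 0.09) and the peptide editor tapbpl (332 and 323 against 645 and 281). The gene nlrc5, the transactivator of class I genes in mammals, read 374 and 390 against 318 and 278, without overlap (0.36, -0.18 to 0.90, adjusted p = 0.568, limma). In all, 17 of the 19 tested class I genes had log2 fold changes within 0.5, which is 89.5% against 67.9% of all tested genes. Some of these had wide 95% intervals, such as tapbpl (-0.38, -1.46 to 0.70).

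Class II genes were read in both gates, and mhc2b was the 1 that separated them. The gene mhc2b, which encodes a class II beta chain, read 325 and 230 in Regenerating, against 96 and 60 in Non-Regenerating. The lower Regenerating value was more than 2 times the higher Non-Regenerating value. The log2 fold change was 1.83 (SE 0.375, 95% interval 0.87 to 2.80, adjusted p = 0.191, limma), a 3.57-fold difference that did not pass adjustment, and it was 1.50 to 2.17 when 1 library was left out. The gene lies on chromosome 8 at 36268747 to 36292840, and its span overlaps, on the other strand, an unnamed gene at 36283548 to 36287046 that the table's protein names describe as similar to a class II alpha chain. That gene read 272 and 94 against 98 and 43, and the sources used here do not say whether strand was used in counting, so the rows may share reads.

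The other class II genes of the same region, between 36268747 and 36475328, did not separate the gates. The alpha chain gene mhc2a read 1967 and 2223 against 2369 and 1775 (log2 fold change 0.03, 95% interval -0.44 to 0.50), and mhc2dab read 892 and 983 against 1739 and 773 (-0.31, -1.32 to 0.70). The gene mhc2bl read 1 and 21 against 3 and 3 and was not tested. The invariant chain genes, whose product guides class II molecules to the endosome, read 1856 and 1904 against 2133 and 1740 (cd74a, -0.04, -0.42 to 0.35) and 1692 and 1753 against 1925 and 1751 (cd74b, -0.09, -0.42 to 0.24). The thiol reductase gene ifi30, which opens disulphide bonds of antigens, read 909 and 1075 against 961 and 923. The gene ciita, the master regulator of class II genes, read 118 and 200 against 125 and 65, and its groups overlapped (0.76, -0.45 to 1.98).

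Markers of cells that present antigen differed between the libraries too. All 7 tested class II genes were higher in Non-Regenerating replicate 1 than in Non-Regenerating replicate 2, as were 20 of 21 macrophage and monocyte markers, whose sums there were 9219 and 5049. The same held for 44 of the 65 tested members, 17 of 19 peptide supply and loading genes outside the members, and 8732 of all 16928 tested genes. The 65 members include the 7 class II genes. Most peptide supply and loading genes thus shared the direction, while all tested genes were divided almost evenly. Between the Regenerating libraries, 1 of the 7 class II genes and 12 of the 21 markers were higher in replicate 1, against 23 of the 65 members and 8379 of all tested genes. Between the gates, 18 of the 21 markers had log2 fold changes above 0 and 3 below. At an unadjusted p under 0.05 (limma), 6 of the 21 were higher in Regenerating and 0 lower, against 7.62% and 5.19% of all tested genes. The largest log2 fold changes of the list were those of spi1b, at 410 and 597 against 75 and 31, and ptprc, at 586 and 680 against 191 and 64. The groups overlapped in 9 of the 21 markers, marco, c1qa and mfap4 among them. They did not overlap in 11 higher and 1 lower in Regenerating, against 21.8% and 21.5% of all tested genes. The perforin-like macrophage genes went opposite ways: mpeg1.1 read 276 and 152 in Regenerating, against 202 and 49 in Non-Regenerating, and mpeg1.2 read 306 and 326 against 1584 and 473. The dendritic cell markers summed to 7611 and 7762 against 8799 and 8227, with a median log2 fold change of -0.22 over the 8 tested. Most of that sum was 1 gene, spock3, at 4104 and 4595 against 5288 and 5317. Of the 8 tested, 3 had log2 fold changes above 0 (id2a, flt3 and cd83) and 5 below. Of the 8 B cell markers, all were higher in both Regenerating libraries, and cd79a, a subunit of the B cell receptor, read 57 and 43 against 9 and 15. The markers ighv1-4, igl1c3, pax5, igic1s1, cd79b and cd37 stayed below 10 in both Non-Regenerating libraries. They could be tested only if Regenerating was higher, so their direction carries no information. The markers cd79a and blnk (68 and 66 against 18 and 4) each reached 10 in a Non-Regenerating library. None of the 8 was at 0 in a Regenerating library, while cd79b, pax5 and igl1c3 were at 0 in both Non-Regenerating libraries. The part of these cells in the values of mhc2b, ciita and the other class II genes was not tested.

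**Figure D5:**
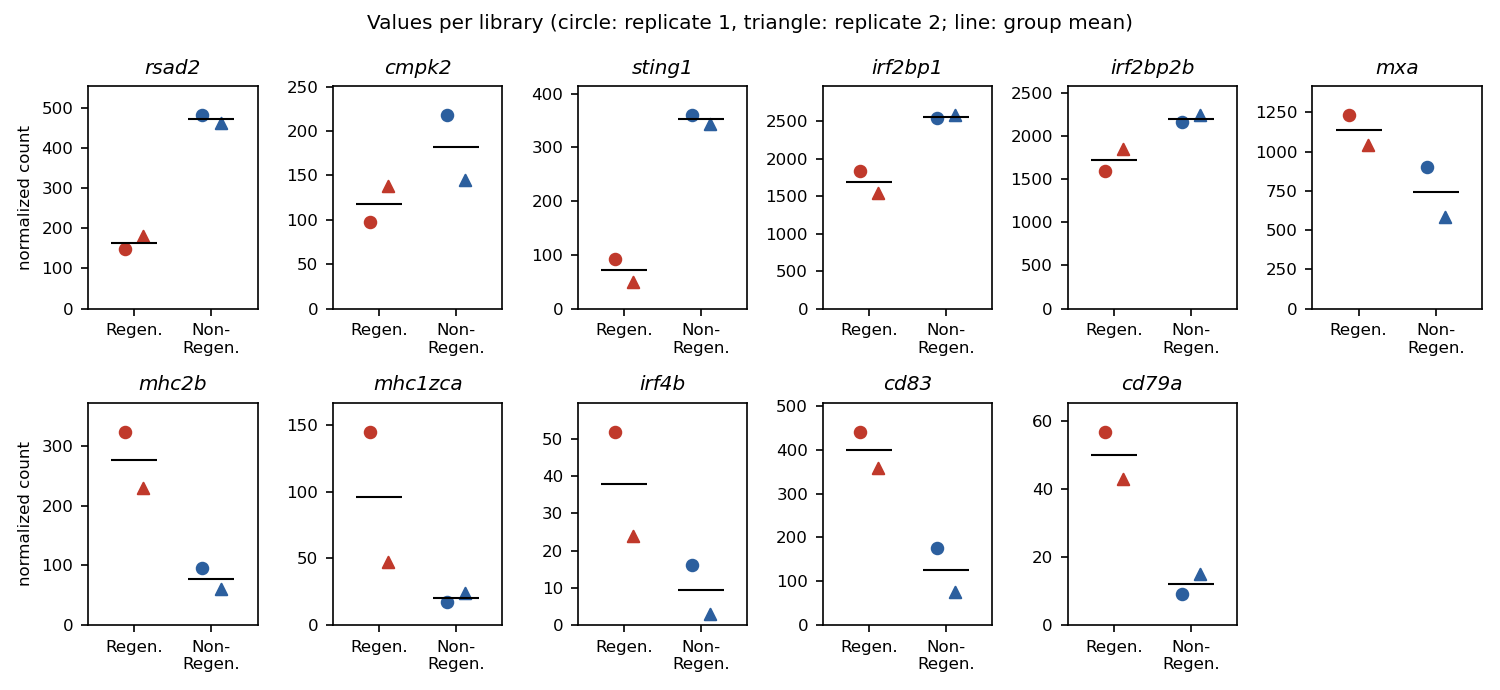
Normalized counts per library (y axes from 0) for 11 genes, with the group mean as a line. The Regenerating values lie below the Non-Regenerating ones for rsad2, cmpk2, sting1, irf2bp1 and irf2bp2b, and above them for mxa, mhc2b, mhc1zca, irf4b, cd83 and the B cell marker cd79a.

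The other genes of the pathway were examined upstream to downstream. At an unadjusted p under 0.05, 7.62% of all tested genes were higher in Regenerating and 5.19% were lower, the background for the counts below. Of 6 interferon ligand symbols listed, 2 were found. The gene ifnphi1 was the only one tested, at 78 and 105 in Regenerating, against 149 and 99 in Non-Regenerating (log2 fold change -0.42, 95% interval -1.38 to 0.54). The gene ifnphi3 read 6 and 6 against 0 and 15. Of 5 receptor genes, 1 had an unadjusted p under 0.05, ifngr1, for a receptor of interferon-gamma, which read 28 and 45 against 6 and 13 (1.88, adjusted p = 0.345, limma). Its paralogue ifngr1l read 1236 and 1358 against 1545 and 1132. None of the 9 JAK and STAT genes outside the members had an unadjusted p under 0.05, and their median log2 fold change was -0.07.

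In the pathway lists outside the members, the gene with the smallest p was sting1, which encodes the adaptor that carries the alarm of cytosolic DNA to interferon induction. It read 93 and 50 in Regenerating, against 360 and 344 in Non-Regenerating, with the Regenerating values far below the Non-Regenerating ones. Its log2 fold change was -2.35 (SE 0.382, 95% interval -3.33 to -1.37), with an adjusted p of 0.164 by limma, so it did not pass either. The adaptor gene tank, which joins TRAF3 to the kinase TBK1, read 664 and 693 against 412 and 382 (0.77, adjusted p = 0.207). These were the genes with an unadjusted p under 0.05 among the 13 sensing adaptors and kinases tested, whose median was 0.18. Over all tested genes, 7.62% were higher and 5.19% lower at that threshold.

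Feedback and effector genes outside the members had median log2 fold changes near 0. Of 12 feedback inhibitors, 1 had an unadjusted p under 0.05, the SUMO ligase gene pias4a, at 877 and 972 against 1399 and 1185 (log2 fold change -0.48, adjusted p = 0.341, limma), and the list's median was -0.10. Of 28 other interferon-inducible effectors tested, 1 did, the guanylate-binding protein gene gbp3, at 992 and 1333 against 733 and 810 (0.58, adjusted p = 0.350), and the median was 0.04. For peptide supply and loading, 0 of 19 genes outside the members had an unadjusted p under 0.05, their median was -0.03 and the smallest adjusted p was 0.572 by limma. Of 15 class II proteases and factors tested, 1 did, cd83, a gene of activated antigen-presenting cells, at 442 and 359 against 177 and 75 (1.78, SE 0.461, 95% interval 0.60 to 2.96, adjusted p = 0.241), with a list median of 0.03. No gene of these pathway lists passed adjustment. The counts at an unadjusted p under 0.05 stand beside 7.62% higher and 5.19% lower over all tested genes.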

How the data were processed

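The authors deposited normalized gene counts that they had rounded to whole numbers, a unit treated here as a score. The submitters' processing notes name the build danRer11 and, without a role, DESeq2 1.36.0, STAR 2.7.11a, featureCounts 2.0.4, Trimmomatic 0.39 and Picard 3.1.1. Full-length cDNA was amplified from roughly 5 ng of RNA a library, per the labels' protocols. Coordinates and symbols are those of the table.

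A gene entered the test where 2 or more of the 4 libraries reached 10 (16928 genes). Values were fitted as log2(value + 1) with limma 3.58.1 in R 4.3.3 (mean-variance trend, 2 residual and 3.08 prior degrees of freedom), so folds of low genes are understated. Adjusted p-values are Benjamini-Hochberg over all genes, and intervals are limma's 95% intervals. The fit was tested on data simulated from its own fitted variances, with independent genes and libraries. Such data hold no deviation shared by same-numbered libraries, so this test cannot speak to one. No count model was used, since the values are not raw counts. Members were grouped by role. Folds and p-values are given for members with an unadjusted p under 0.05 and, in each role, for the 3 with the highest mean. Further members carry a fold and an interval, and cmpk2, mxa, irf7, irf4b and nlrc5 also an adjusted p. They were chosen after their values were seen. Other pathway genes follow lists of symbols, naming those with an unadjusted p under 0.05. The genes ifnphi1, ifnphi3 and ifngr1l were added after their values were seen. Not every listed symbol was found. The symbols found were 5 of 13 for receptors, 13 of 20 for sensing adaptors and kinases, and 29 of 45 for other effectors. For class II proteases and factors they were 16 of 20. Whether the others stand under another symbol was not tested. The members and lists were chosen with earlier results of these data known. Promoter sequences were not analysed here. A pair of members is counted but not reported here by name or value. Alternatives were other pseudocounts, filters and scalings, no variance trend, a replicate block, and each library left out.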

Additional observations from a re-analysis of the deposited data

How the results depend on the processing

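The fit as reported gave 0 members with an adjusted p under 0.05 by limma, with 6 at an unadjusted p under 0.05. Over 12 alternatives the count of adjusted calls was 0 in all but the replicate block, and the median log2 fold change of the members stayed between -0.16 and -0.01. The labels number the replicates 1 and 2 in each gate, and deviations of same-numbered libraries correlated at 0.34 over all tested genes, with only 2 pairs and nothing in the labels to say that a number marks a shared source. With the replicate number as a block, 2 of the 65 members passed, rsad2 (adjusted p = 0.0488, limma) and mhc2b (adjusted p = 0.0498, limma). Over all genes, 357 of 16928 passed in that fit. At an unadjusted p under 0.05 it gave 5 members higher (7.69% against 11.9% of all genes) and 7 lower (10.8% against 8.66%). Leaving out 1 library gave 1 to 4 members higher (1.54% to 6.15%, against 3.48% to 7.49% of all genes) and 1 to 5 lower (1.54% to 7.69%, against 2.43% to 4.92%). Quantile scaling turned the direction of mhc1zba (0.00), whose difference was near 0. Leaving out 1 library turned the direction of 34 of the 65 tested members, mhc2dab, tap2a, tap1, tapbpl, irf1b, irf10, ifitm1 and ifi30 among them. Among 18 members followed across the settings it did so for mhc1zba (-0.15 to 0.00), mhc2a (-0.18 to 0.24), irf2 (-0.08 to 0.13), cd74a (-0.18 to 0.11), ifih1 (-0.16 to 0.06) and ifi35 (-0.16 to 0.25). The cause was not tested. Of the 65 tested members, 31 had the same sign under every alternative run. With 2 libraries per gate, members with values under 100 have wide intervals, and a difference there may not be detectable.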
